A study of Homo sapiens with 9 samples.

Results

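The tissue inhibitors of metalloproteinases TIMP1, TIMP2, TIMP3 and TIMP4 were examined together with the secreted proteases ADAMTS1, ADAMTS9 and ADAMTS16 and the matrix metalloproteinases MMP2, MMP14 and MMP15. These 10 genes of the 63856 genes listed were taken by symbol from the table of normalized values, with the counts of the same genes from the count table. They were chosen with the values of these samples already known, so their levels and fold changes are a description and no p-value is given for them. All 10 genes had enough counts to be among the 18452 genes tested.

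RNA-seq of total RNA was performed in TCam-2 cells, a human testicular seminoma line, in 3 groups of 3 biological replicates. ESX1 denotes cells transfected with gRNAs (guide RNAs) specific for the promoter region of the ESX1 gene and with the doxycycline-inducible activator dCas9-VPR (CRISPRa, activation of a gene by a Cas9 that does not cut). NC denotes the negative control with gRNAs nonspecific for the human genome, and WT denotes unmodified cells. The transfected cells were selected with puromycin and doxycycline and collected 72 h after transfection, and WT had neither the vectors nor, as far as the methods state, the selection. Whether NC also received the activator is not stated in the sources used here. GFP, which the gRNA vector carries, was seen in only part of the transfected cells. The paper also reports strong and weak ESX1 protein signal in the nuclei of the modified cells. The values are therefore averages over cells that may differ in how much vector they hold.

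Total counts per sample ranged from 5212804 to 10644408, and the smallest library was ESX1 replicate 3. Counts of ESX1 itself were 562, 554 and 170 in the ESX1 samples, 35, 27 and 34 in NC and 33, 28 and 30 in WT. Values are given as normalized CPM (read counts brought to a common library size with edgeR's TMM factors), and 3 counts correspond to between 0.302 and 0.554 normalized CPM in a sample. The 10 seminoma markers, among them POU5F1, NANOG and SOX17, were all detected, and their summed level was between 1864 and 2253 normalized CPM in ESX1, between 3538 and 3696 in NC and between 4537 and 5420 in WT. Mitochondrial genes took 19.2% to 19.87% of the counts in ESX1, 14.45% to 15.25% in NC and 17.02% to 18.33% in WT.

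Tissue inhibitors of metalloproteinases are small secreted proteins that bind the catalytic site of matrix proteases and block it. Matrix metalloproteinases (MMP) cut collagens and other matrix proteins, and some of them are anchored in the cell membrane. ADAMTS proteases are secreted enzymes with thrombospondin repeats that cut proteoglycans such as versican or trim procollagens. TIMP3, which stays bound to the extracellular matrix, inhibits several of them as well as some ADAM proteases at the cell surface. In the testis these enzymes and inhibitors act in the basement membrane and at the junctions between Sertoli cells and germ cells.

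Among the inhibitors, TIMP3 was the gene that differed most between the groups. Its level was 31.3, 25.7 and 20.1 normalized CPM in the ESX1 samples, 6.01, 3.97 and 4.27 in NC and 1.75, 1.31 and 1.15 in WT. The 3 groups did not overlap, and their order was ESX1 over NC over WT. The group means were 25.7 ± 5.60, 4.75 ± 1.10 and 1.40 ± 0.309 normalized CPM (SD, n = 3). TIMP3 was 5.43-fold higher in ESX1 than in NC (log2 fold change 2.44, standard error 0.237) and 18.2-fold higher than in WT (4.19, standard error 0.281). NC in turn was 3.36-fold above WT (1.75, standard error 0.305), so the control transfection also differed from untransfected cells for this gene. The values rest on 309, 255 and 109 counts in ESX1, 58, 37 and 42 in NC and 16, 9 and 11 in WT.

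TIMP3 (ENSG00000100234.11) lies on the plus strand of GRCh38 at chr22:32801701-32863043, inside SYN3, which is transcribed from the opposite strand. None of the TIMP3 exon bases lie in an exon of SYN3 or of another listed gene. The counting did not use the strand, so reads from SYN3 introns could be counted for TIMP3, which was not tested. SYN3 had between 6 and 29 counts in a sample and was not called in any comparison. TIMP1 likewise lies inside SYN1 and TIMP4 inside SYN2, and neither of these synapsin genes was called (edgeR's quasi-likelihood test, 0 of 3 synapsin genes in each comparison, with 0, 0 and 1 at an unadjusted p below 0.05 for ESX1 against NC, ESX1 against WT and NC against WT, and 0 by DESeq2 and by limma). Of all tested genes, 1.78%, 11.5% and 5.27% were called in these comparisons. The limit given for introns of SYN3 holds for TIMP1 and TIMP4 too.

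A promoter sequence was found for 5 of the 10 genes, namely TIMP1, TIMP3, TIMP4, MMP14 and MMP15, in the RefSeq table of GRCh38.p14. The 250 bases before the RefSeq transcription start are given below for TIMP3, TIMP1 and MMP15. TIMP3 was the gene with the largest difference from WT, and TIMP1 the inhibitor with the highest mean level per kilobase of exon. MMP15 was a protease that was lower in both transfected groups than in WT. Capitals mark the GC box, the letters GGGCGG on either strand, which Sp1 and related factors bind. The windows are chr22:32801455-32801704, chrX:47582186-47582435 and chr16:58025504-58025753, all on the plus strand. The genes as counted in the annotation of the files begin inside these windows, at 32801701 for TIMP3, 47582313 for TIMP1 and 58025566 for MMP15, so part of the TIMP1 and MMP15 windows lies within the counted gene.
TIMP3: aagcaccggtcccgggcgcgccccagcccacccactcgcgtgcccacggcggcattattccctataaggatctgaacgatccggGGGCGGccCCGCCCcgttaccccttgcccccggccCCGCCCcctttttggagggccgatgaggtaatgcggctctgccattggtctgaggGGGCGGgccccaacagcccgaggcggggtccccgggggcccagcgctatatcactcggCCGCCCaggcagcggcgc
TIMP1: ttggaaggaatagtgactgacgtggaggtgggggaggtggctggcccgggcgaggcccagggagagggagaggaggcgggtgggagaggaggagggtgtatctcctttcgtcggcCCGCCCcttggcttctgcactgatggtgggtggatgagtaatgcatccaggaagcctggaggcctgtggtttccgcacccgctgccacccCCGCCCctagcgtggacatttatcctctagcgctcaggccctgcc
MMP15: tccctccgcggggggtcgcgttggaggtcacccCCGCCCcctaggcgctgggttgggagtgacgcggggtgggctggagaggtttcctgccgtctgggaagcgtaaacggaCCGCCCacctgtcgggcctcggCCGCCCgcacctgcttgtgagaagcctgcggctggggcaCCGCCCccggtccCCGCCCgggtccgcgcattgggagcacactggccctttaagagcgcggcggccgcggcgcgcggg

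The TIMP3 window held 5 GC boxes and the MMP15 window also held 5, while the TIMP1 window held 2. A GC box was present in 42.6% of the 35116 promoter windows of the same length. The GC content was 72.4% for TIMP3, 74.8% for MMP15 and 64.8% for TIMP1, against a median of 58% over all windows, and the number of CpG dinucleotides was 26, 31 and 12 against a median of 11. The letters CCAAT, on either strand, occurred in the windows of TIMP3 and MMP15, as in 32% of all windows, without overlap with a GC box. The TATA box letters TATAAA (10.7% of all windows), the AP-1 letters TGANTCA (6.57%) and the homeobox core TAATTA (4.35%) were found in none of the 5 windows on either strand. TIMP3 and MMP15 had a like base composition, and their levels differed from WT in opposite directions in NC and in ESX1. These matches describe letters only.

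TIMP1, a broad inhibitor of secreted metalloproteinases, was 27.3, 15.7 and 12.7 normalized CPM in ESX1, 21.8, 22.0 and 19.2 in NC and 31.0, 20.8 and 22.8 in WT. ESX1 replicate 1 was above all NC samples and the other two ESX1 samples were below them, so the groups overlapped. On the log2 scale the difference was -0.16 (standard error 0.232) from NC and -0.40 (standard error 0.232) from WT.

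TIMP2, which inhibits MMP2 and also takes part in its activation at the cell surface, was 56.6, 44.0 and 51.0 normalized CPM in ESX1, 71.4, 57.6 and 64.1 in NC and 75.8, 70.4 and 73.3 in WT. All ESX1 samples were below all control samples. The differences were small, with log2 fold changes of -0.35 (standard error 0.126) against NC and -0.54 (standard error 0.126) against WT, that is 1.27-fold and 1.45-fold lower. Of the TIMP2 exon bases, 10.03% lie in exons of other listed genes, among them CEP295NL on the same strand.

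TIMP4, an inhibitor with a narrow tissue range, was close to the detection limit, with 14, 5 and 4 counts in ESX1, 11, 4 and 15 in NC and 7, 1 and 14 in WT. Its groups overlapped, and its log2 fold changes of -0.20 (standard error 0.687) against NC and 0.12 (standard error 0.712) against WT were smaller than their errors. A difference in TIMP4 was not detectable at this depth. Part of its exon sequence, 10.3%, is shared with SYN2 on the opposite strand, and the counting did not use the strand, so reads of both cannot be told apart there. SYN2 holds the whole TIMP4 gene, so reads from SYN2 introns could also be counted for TIMP4 outside these bases, which was not tested.

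**Figure D1:**
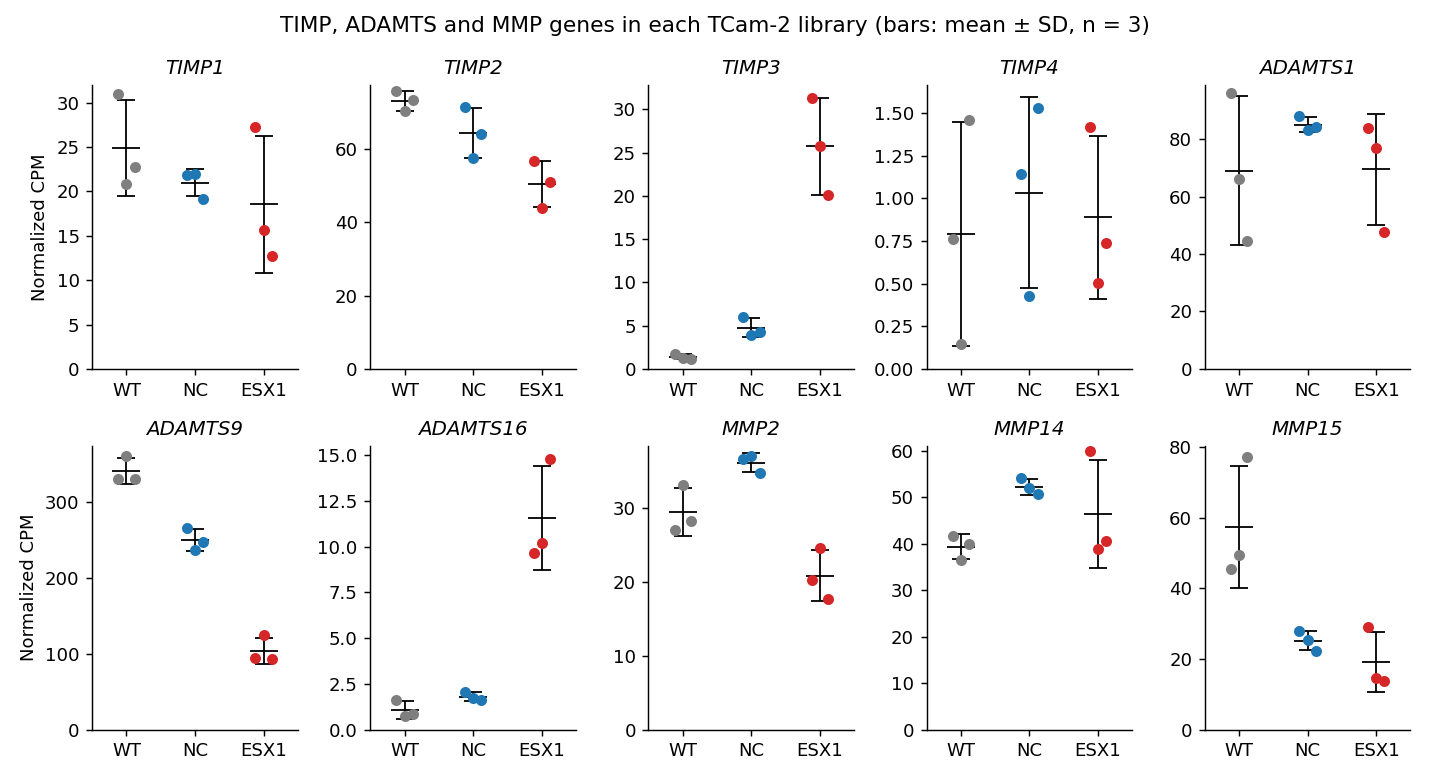
Normalized CPM (y axis, linear, a separate scale for each gene) of the 10 genes in the WT, NC and ESX1 samples (x axis). Each point is 1 sample, and the bars give the mean ± SD of 3 replicates. TIMP3 and ADAMTS16 were highest in ESX1 and ADAMTS9 lowest, with no overlap with either control, while TIMP1, TIMP4, ADAMTS1, MMP14 and MMP15 overlapped between ESX1 and NC.

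The 4 inhibitors were compared with one another per kilobase of exon, since longer transcripts yield more reads. In WT the level was 16.1 ± 3.50 normalized CPM per kilobase for TIMP1, 13.0 ± 0.477 for TIMP2, 0.479 ± 0.399 for TIMP4 and 0.305 ± 0.0671 for TIMP3 (SD, n = 3). TIMP1 and TIMP2 thus made up nearly all TIMP transcripts, and their order was within the spread of the samples, as was that of TIMP4 and TIMP3. In ESX1 the level of TIMP3 per kilobase was 5.58 ± 1.22, next to 8.97 ± 1.12 for TIMP2 and 12.1 ± 4.98 for TIMP1.

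The share of TIMP3 in the summed per-kilobase level of the 4 inhibitors was 1.02% ± 0.132 in WT, 3.84% ± 0.617 in NC and 20.8% ± 2.25 in ESX1 (SD, n = 3). In single ESX1 samples it was 19.2%, 23.4% and 19.8%. The summed level itself was 29.9 ± 4.10 in WT, 26.7 ± 1.82 in NC and 27.1 ± 7.21 in ESX1 and overlapped between the groups. The composition of the inhibitors therefore differed while a difference in their total was within the spread. These are shares of transcripts and not of protein, and in bulk RNA fewer cells of a type and less RNA per cell cannot be told apart.

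Among the ADAMTS proteases, ADAMTS16 was higher and ADAMTS9 lower in ESX1 than in both controls, and ADAMTS1 overlapped. ADAMTS16, a protease expressed in gonads and kidney, was 9.63, 10.2 and 14.8 normalized CPM in ESX1, 2.07, 1.72 and 1.63 in NC and 1.64, 0.729 and 0.836 in WT. All ESX1 samples were above all control samples, and NC overlapped with WT. The means were 11.5 ± 2.83, 1.81 ± 0.236 and 1.07 ± 0.497 (SD, n = 3). ADAMTS16 was 6.28-fold higher than in NC (log2 fold change 2.65, standard error 0.319) and 10.4-fold higher than in WT (3.38, standard error 0.347). It remained a low-abundance transcript, with 95, 101 and 80 counts in ESX1, 20, 16 and 16 in NC and 15, 5 and 8 in WT.

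ADAMTS9, which cuts the proteoglycans versican and aggrecan, had the highest level per kilobase of the 10 genes in both controls. It was 94.0, 124 and 93.5 normalized CPM in ESX1, 265, 237 and 247 in NC and 330.1, 360.2 and 330.3 in WT. The 3 groups did not overlap, in the order opposite to that of TIMP3. ADAMTS9 was 2.40-fold lower in ESX1 than in NC (log2 fold change -1.26, standard error 0.123) and 3.27-fold lower than in WT (-1.71, standard error 0.125), and NC was 1.36-fold lower than WT (-0.45, standard error 0.121).

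ADAMTS9 (ENSG00000163638.13) lies on the minus strand at chr3:64515654-64688000 and shares 174 exon bases, 1.63% of its exons, with the antisense gene ADAMTS9-AS1. ADAMTS9-AS1 had 36, 84 and 38 counts in ESX1, 163, 131 and 156 in NC and 181, 181 and 161 in WT. It was at -1.30 on the log2 scale against NC (edgeR's quasi-likelihood test, adjusted p = 0.007) and at -1.72 against WT (adjusted p = 0.000106), close to the values of ADAMTS9 itself. Since reads were counted without regard to strand, reads from ADAMTS9 and from its antisense partner cannot be told apart in the shared bases. ADAMTS9-AS1 lies wholly inside ADAMTS9, so its other exons lie in ADAMTS9 introns. Reads from ADAMTS9 introns could be counted there for ADAMTS9-AS1, which was not tested. The value of ADAMTS9-AS1 is therefore not a separate observation.

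ADAMTS1, which also cuts versican and is known for its role in ovulation, was 84.0, 76.8 and 47.5 normalized CPM in ESX1, 88.0, 83.1 and 84.1 in NC and 96.2, 66.0 and 44.7 in WT. The WT samples alone spanned the range of all ESX1 and NC samples, and the 3 groups overlapped. On the log2 scale the difference was -0.28 (standard error 0.217) from NC and 0.02 (standard error 0.218) from WT.

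TIMP3, ADAMTS16 and ADAMTS9 are also among the genes that the study picked from these same libraries, and their directions here are therefore not independent evidence. Most seminoma markers were lower in ESX1 than in both controls, while SOX17 overlapped with both (log2 fold change -0.03 against NC and 0.11 against WT). The 10 seminoma markers had a median log2 fold change of -0.70 against NC and -1.27 against WT. Of them, 2 and 8 were called lower, where 0.699% and 4.77% of all tested genes were called lower. The endothelial markers, mostly VWF, summed to between 31.5 and 42.3 normalized CPM in ESX1, between 20.3 and 29.5 in NC and between 11.8 and 16.4 in WT. The 6 fibroblast markers summed to between 109 and 228 normalized CPM in ESX1, between 133 and 169 in NC and between 191 and 338 in WT, mostly from COL1A2. COL1A1 went the other way and was called higher than in WT in ESX1 (2.27 on the log2 scale, edgeR's adjusted p = 0.000236) and in NC (2.19, adjusted p = 0.000708). COL3A1 had 70, 0 and 6 counts in WT replicates 1, 2 and 3, and LUM had 31, 0 and 0. In ESX1 replicates 1, 2 and 3, COL3A1 had 15, 1 and 2 counts. The signal of these fibroblast markers thus lay mostly in single samples. Of the 4 leukocyte markers, PTPRC, CD68 and LYZ had at most 3 counts in every sample, and all 4 summed to at most 2.44 normalized CPM. The part of these marker differences in the values of the 10 genes was not tested. With the mitochondrial genes left out of the fit, TIMP3, ADAMTS16 and ADAMTS9 were at 2.44, 2.65 and -1.26 on the log2 scale against NC, as with them. That fit kept 18433 of the 18452 genes, so it could hardly move these values. The part of the mitochondrial share in them was not tested.

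Of the matrix metalloproteinases, MMP2 was lower in ESX1 than in both controls and MMP15 was lower in both transfected groups than in WT. MMP2, a gelatinase that is activated on the cell surface by MMP14 together with TIMP2, was 20.3, 24.6 and 17.7 normalized CPM in ESX1, 36.7, 37.1 and 34.7 in NC and 27.1, 33.1 and 28.2 in WT. All ESX1 samples were below all control samples. MMP2 was 1.72-fold lower than in NC (log2 fold change -0.78, standard error 0.155) and 1.40-fold lower than in WT (-0.48, standard error 0.157), and NC was above WT without overlap (0.30, standard error 0.152).

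MMP14, the membrane-bound activator of MMP2, was 59.8, 38.9 and 40.6 normalized CPM in ESX1, 54.0, 51.9 and 50.7 in NC and 41.7, 36.4 and 40.0 in WT. ESX1 replicate 1 was above every other sample, and the remaining ESX1 samples were within the range of WT. The difference from NC was -0.16 on the log2 scale (standard error 0.152) and that from WT 0.24 (standard error 0.154), and NC was above WT without overlap (0.40, standard error 0.153).

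MMP15, another membrane-bound metalloproteinase, was 29.0, 14.7 and 13.9 normalized CPM in ESX1, 27.8, 25.5 and 22.4 in NC and 45.5, 49.4 and 77.1 in WT. All WT samples were above all transfected samples, and ESX1 overlapped with NC because of ESX1 replicate 1. MMP15 was 2.95-fold lower in ESX1 than in WT (log2 fold change -1.56, standard error 0.247) and 2.28-fold lower in NC than in WT (-1.19, standard error 0.241). Against NC the value was -0.37 (standard error 0.249), and it was -0.82 without ESX1 replicate 1. Without WT replicate 3, the sample with the highest level, NC against WT was -0.91 and under 2-fold.

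**Figure D2:**
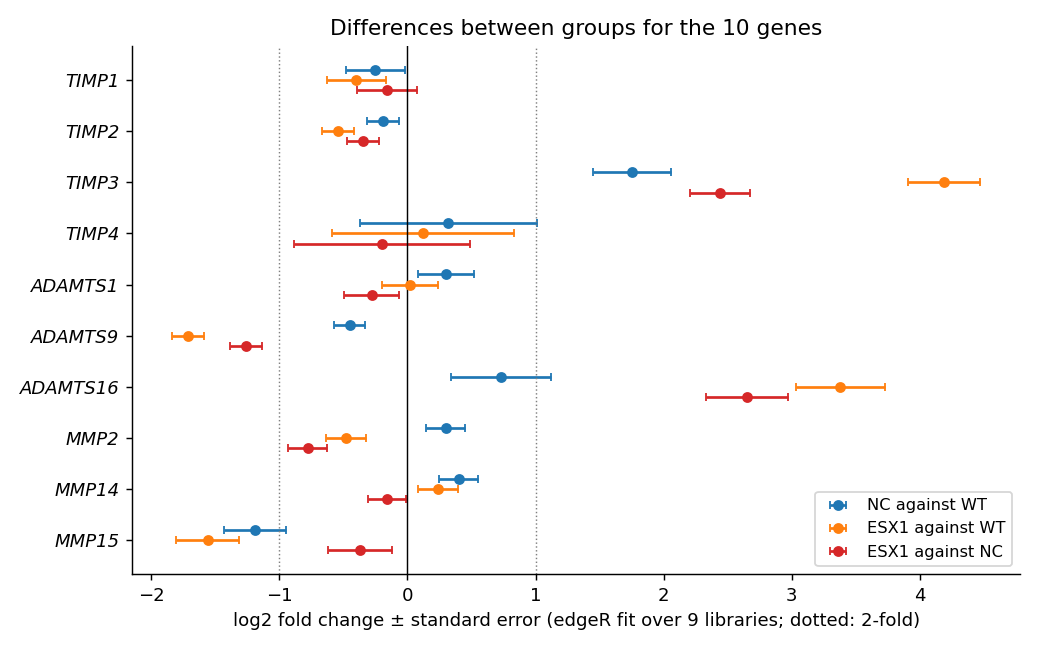
Log2 fold change (x axis) of each of the 10 genes (y axis) for ESX1 against NC, ESX1 against WT and NC against WT. Points are estimates of the edgeR fit over all 9 samples, bars are standard errors, and dotted lines mark 2-fold. TIMP3 and ADAMTS16 were right of the upper line and ADAMTS9 left of the lower line in both comparisons of ESX1, and MMP15 was left of it in both comparisons with WT.

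Counted by the rule used for all genes, an adjusted p below 0.05 and at least 2-fold, 2 of the 10 genes were called higher (TIMP3 and ADAMTS16) and 1 lower (ADAMTS9) in ESX1 against NC, where 1.78% of all tested genes were called, 1.08% higher and 0.699% lower. Against WT, 2 were called higher and 2 lower (ADAMTS9 and MMP15), where 11.5% of all tested genes were called, 6.78% higher and 4.77% lower. In NC against WT, TIMP3 was called higher and MMP15 lower, where 5.27% of all tested genes were called, 3.12% higher and 2.15% lower. TIMP3 and ADAMTS16 were called higher, and ADAMTS9 lower, in ESX1 against both controls, as were 0.948% and 0.585% of all tested genes. The genes were selected with these values known, so nothing is read from the shares. The median log2 fold change of the 10 genes was -0.24, -0.19 and 0.30 in the 3 comparisons, against 0.00, 0.01 and 0.01 over all tested genes. The comparisons share their samples, and the values are therefore not independent of one another.

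By whether the groups overlapped, TIMP3 and ADAMTS16 were higher and TIMP2, ADAMTS9 and MMP2 lower in ESX1 than in NC without overlap, as 10.7% and 11.8% of all tested genes were. Against WT the same 2 genes were higher and TIMP2, ADAMTS9, MMP2 and MMP15 lower, where 18.9% and 21.3% of all tested genes did not overlap. NC was above WT without overlap for TIMP3, MMP2 and MMP14 and below it for ADAMTS9 and MMP15, where 17.6% and 20% of all tested genes did not overlap.

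Ranked per kilobase of exon, ADAMTS9 had the highest level of the 10 genes in WT (31.9 ± 1.62 normalized CPM per kilobase, SD, n = 3) and in NC (23.4 ± 1.34). In WT it was followed by TIMP1 at 16.1, TIMP2 and MMP15 both at 13.0, ADAMTS1 at 9.77 and MMP14 at 8.82, of which neighbours did not differ beyond their spread. In ESX1 the top of the order was TIMP1 at 12.1 ± 4.98, MMP14 at 10.4 ± 2.60, ADAMTS1 at 9.83 ± 2.74, ADAMTS9 at 9.73 ± 1.65 and TIMP2 at 8.97 ± 1.12, and these 5 levels overlapped within their SDs. ADAMTS16 was at 0.182 ± 0.0847 in WT and 1.97 ± 0.483 in ESX1, where it was still the lowest of the 6 proteases.

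**Figure D3:**
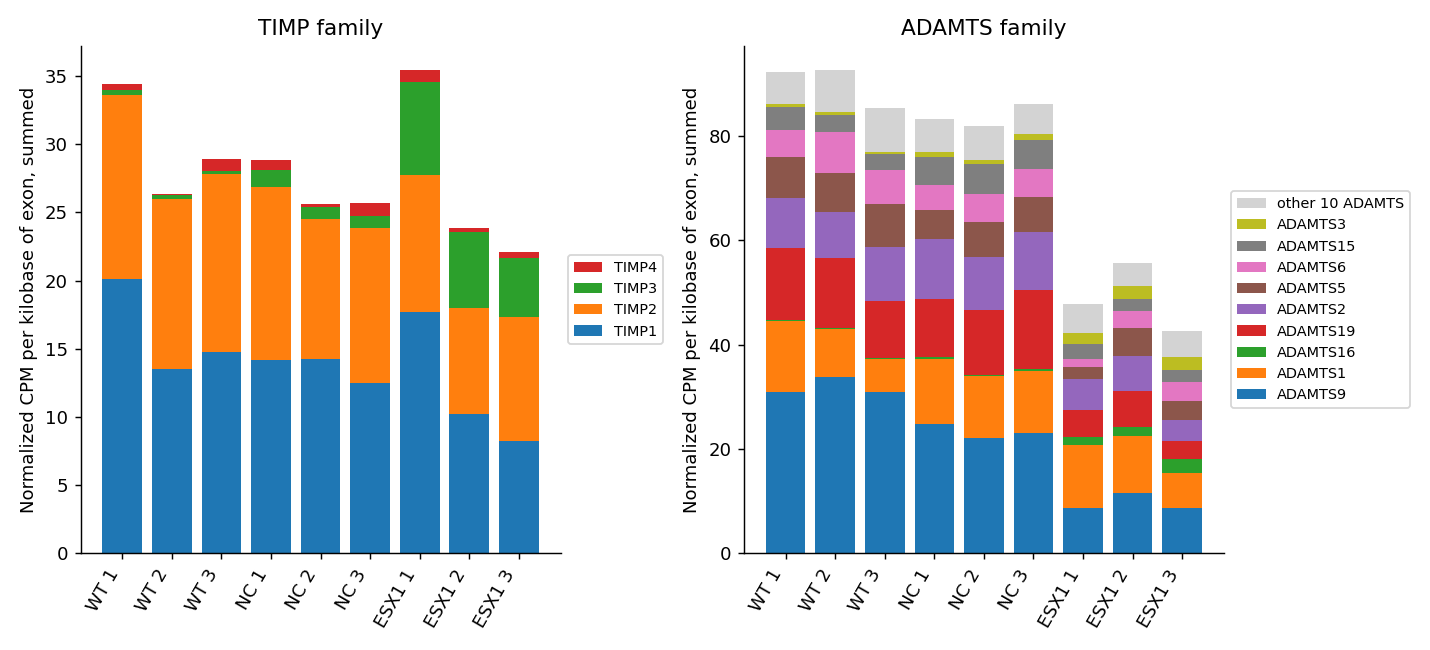
Summed normalized CPM per kilobase of exon (y axis, linear from 0) of the TIMP genes and of the ADAMTS genes in each of the 9 samples (x axis), split by gene. The TIMP3 segment took 19.2% to 23.4% of the TIMP bar in ESX1 and 0.863% to 1.10% in WT, and the ADAMTS bars of ESX1 (42.6 to 55.6) were below those of every control sample (81.9 to 92.6).

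The summed per-kilobase level of the 19 ADAMTS genes was 48.6 ± 6.52 in ESX1, 83.7 ± 2.08 in NC and 90.0 ± 4.09 in WT (SD, n = 3), and no ESX1 sample overlapped with a control. ADAMTS9 accounted for 20.0% ± 1.34 of this sum in ESX1, 27.9% ± 1.63 in NC and 35.4% ± 1.61 in WT. The share of ADAMTS16 was 4.16% ± 1.53, 0.368% ± 0.0517 and 0.202% ± 0.0896. The summed level of the 23 MMP genes was 42.2 ± 11.2, 52.5 ± 2.02 and 54.1 ± 2.51, and ESX1 replicate 1, at 54.6, was within the range of the controls. MMP15 took 23.8% ± 6.05 of the MMP sum in WT and 10.9% ± 0.777 in NC.

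The other 36 MMP and ADAMTS genes were counted to see whether the rest of these families differed too. Of these, 22 had enough counts to be tested, and 14 did not, MMP7, MMP8, MMP26 and MMP27 having 0 counts in every sample. In ESX1 against NC, 1 was called higher (ADAMTS3) and 2 lower (ADAMTS19 and ADAMTS15) by edgeR's quasi-likelihood test, where 1.78% of all tested genes were called. Against WT, 1 was called higher (ADAMTS3) and 5 lower (ADAMTS12, ADAMTS19, ADAMTS8, ADAMTS6 and ADAMTS5), where 11.5% of all tested genes were called. In NC against WT, 0 of 22 were called, where 5.27% of all tested genes were called. Of the 22, 5 had an unadjusted p below 0.05 by edgeR, and 0 were called by DESeq2 or by limma on the deposited values. The calls were all in the ADAMTS family. Only 7 of the 22 are MMP genes, too few at these shares to read a difference between the families from it. The median log2 fold change of the 15 other tested ADAMTS genes was -0.59 against NC and -0.54 against WT, beside 0.00 and 0.01 over all tested genes.

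ADAMTS3, which trims the N-terminal propeptide of procollagens, was 15.1, 17.4 and 17.4 normalized CPM in ESX1, 7.05, 6.22 and 7.74 in NC and 3.71, 4.96 and 2.72 in WT. It rose by a log2 fold change of 1.24 (edgeR, adjusted p = 0.00329) against NC and 2.15 (adjusted p = 5.18e-06) against WT. Its groups did not overlap, in the same order as those of TIMP3. ADAMTS2, a procollagen N-proteinase as well, was at -0.96 (adjusted p = 0.00117) against NC and -0.78 (adjusted p = 0.00102) against WT, under the 2-fold threshold.

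ADAMTS19, a little-studied member of the family, was 27.6, 36.8 and 19.4 normalized CPM in ESX1, 60.1, 66.8 and 82.3 in NC and between 59.1 and 74.5 in WT. All ESX1 samples were below all control samples. It fell in both comparisons, with log2 fold changes of -1.30 (edgeR, adjusted p = 0.000473) and -1.27 (adjusted p = 7.45e-05). ADAMTS15, a proteoglycan-cutting relative of ADAMTS1, fell against NC (-1.14, adjusted p = 0.000763) and was at -0.51 against WT. ADAMTS12 fell against WT (-1.53, adjusted p = 2.08e-05), and so did ADAMTS6 (-1.22, adjusted p = 0.000552), ADAMTS8 (-1.45, adjusted p = 0.00907) and ADAMTS5 (-1.05, adjusted p = 0.00098), the main aggrecan-cutting enzyme of cartilage. Without ESX1 replicate 1, ADAMTS5 and ADAMTS6 were under 2-fold or not past the adjusted p against WT, and the same held for ADAMTS5 without ESX1 replicate 3. With limma on the deposited values, the calls of ADAMTS8 against WT and of ADAMTS3 and ADAMTS15 against NC were lost.

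None of the 7 other MMP genes tested was called in any comparison by edgeR, and 0 by DESeq2 or limma. At an unadjusted p below 0.05 were 1, 2 and 1 of them for ESX1 against NC, ESX1 against WT and NC against WT. Of all tested genes, 1.78%, 11.5% and 5.27% were called in these comparisons, so 0 of 7 is not read as a difference from them. Under other filters or with a sample left out, MMP9, MMP19 and MMP25 were called in 1 or 2 alternatives each, in ESX1 against WT or NC against WT. MMP24, a membrane-bound enzyme best known from neurons, had the highest level of the family, at 18.4, 24.1 and 22.7 normalized CPM per kilobase in ESX1, NC and WT, with 21.77% of its exon bases shared with other listed genes. The gelatinase MMP9 had at most 13 counts in a sample and the collagenase MMP1 at most 1.

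**Figure D4:**
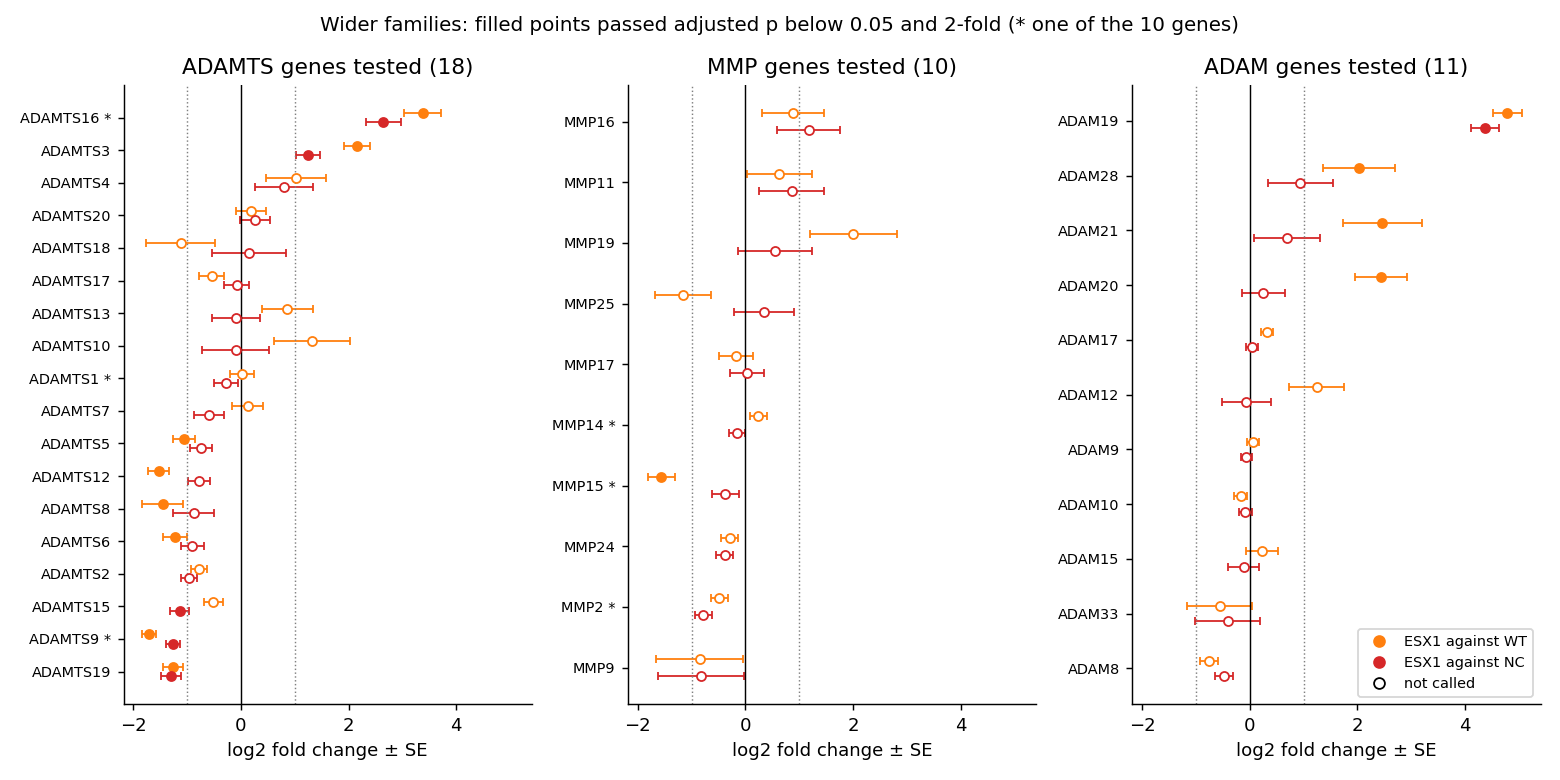
Log2 fold change ± SE (x axis) in ESX1 against NC and against WT for every tested ADAMTS, MMP and ADAM gene (y axis), with dotted lines at 2-fold and an asterisk at genes of the 10. Filled points passed the adjusted p of 0.05 and 2-fold. Calls among the 18 ADAMTS genes lay on both sides of 0, the MMP panel held a call for MMP15 alone, and ADAM19 stood at 4.37 and 4.79.

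The ADAM proteases are membrane-anchored relatives that shed surface proteins, and TIMP3 can inhibit some of them. Whether it inhibits those named here was not tested. Among the 12 ADAM genes listed, 11 were tested. Of these, 1 was called higher in ESX1 against NC and 4 against WT, where 1.08% and 6.78% of all tested genes were called higher. ADAM19 was 158, 89.9 and 96.1 normalized CPM in ESX1, 6.22, 6.32 and 4.07 in NC and 5.79, 3.79 and 2.82 in WT. It was 20.7-fold higher than in NC (edgeR, log2 fold change 4.37, adjusted p = 2.09e-08) and 27.7-fold higher than in WT (4.79, adjusted p = 6.95e-09), with all ESX1 samples above all controls. NC and WT overlapped (0.42, adjusted p = 0.375). The log2 fold change of ADAM19 was larger in both comparisons of ESX1 than that of any of the 10 genes.

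ADAM17 and ADAM10, the broadly expressed sheddases, were not called and ranged between 67.4 and 97.0 and between 142 and 192 normalized CPM over all samples. ADAM28, ADAM21 and ADAM20 were called higher in ESX1 against WT (2.03, 2.46 and 2.44, edgeR's adjusted p = 0.0311, 0.0184 and 0.000966), and ADAM20 also in NC against WT (2.19, adjusted p = 0.00429). ADAM20 and ADAM21 are paralogs, and whether reads of one were counted for the other was not tested. The calls of ADAM21 and ADAM28 were each lost in 5 alternatives, among them without WT replicate 2, without WT replicate 3 and without ESX1 replicate 2, and further without ESX1 replicate 3 for ADAM21 and without ESX1 replicate 1 for ADAM28.

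Inhibitors of other classes were examined beside the TIMP genes. SERPINE2, a serine protease inhibitor of thrombin and plasminogen activators, was 83.1, 119 and 60.2 normalized CPM in ESX1, 285, 302 and 306 in NC and 324, 422 and 296 in WT. It fell by 1.76 on the log2 scale against NC (edgeR, adjusted p = 2.56e-05) and by 1.98 against WT (adjusted p = 8.74e-07). RECK, a membrane-anchored inhibitor of MMP2 and MMP14, was not called in any comparison.

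Of 9 activators, carriers and clearance receptors, 0 were called in ESX1 against NC by edgeR (4 at an unadjusted p below 0.05, 1 called by DESeq2 and 0 by limma). Of all tested genes, 1.78% were called in ESX1 against NC, and 6.78% were called higher in ESX1 against WT. PLAU and PLAUR, the urokinase that starts plasmin formation and its receptor, were called higher in ESX1 against WT (1.40 and 1.24, adjusted p = 0.0232 and 0.0159). PLAU shared 31.05% of its exon bases with another gene and overlapped between the groups, and both calls were lost without ESX1 replicate 2 or without WT replicate 3, that of PLAU also without ESX1 replicate 1 or WT replicate 2. FURIN, the convertase that activates MMP14 and many ADAMTS enzymes, was not called.

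Of 10 matrix substrates, 5 were tested. Of these, 2 were called higher in ESX1 against NC and 3 against WT, where 1.08% and 6.78% of all tested genes were called higher. VCAN, the gene of versican that ADAMTS1 and ADAMTS9 cut, was 60.3, 78.9 and 47.1 normalized CPM in ESX1, 108, 106 and 116 in NC and 36.8, 32.2 and 24.7 in WT. The 3 groups did not overlap, with NC highest. VCAN rose in NC against WT (edgeR, log2 fold change 1.82, adjusted p = 5.6e-06), was at -0.82 in ESX1 against NC and was called higher in ESX1 against WT (adjusted p = 0.000325), just at the 2-fold threshold, with 0.79 to 1.19 on the log2 scale over 17 alternatives. The call was lost in 4 of them, without ESX1 replicate 2, without WT replicate 3, by limma and with the replicate number as a block.

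HSPG2 and NID1, the basement membrane genes of perlecan and nidogen, were called higher in ESX1 against both controls. In the comparison with WT they were higher by 1.68 on the log2 scale for HSPG2 and 2.15 for NID1. Against NC they were 1.02 (edgeR, adjusted p = 0.0441) and 1.43 (adjusted p = 0.0447). Both calls against NC were lost by DESeq2, by limma and by leaving out ESX1 replicate 1 or any NC replicate. That of HSPG2 was also lost without ESX1 replicate 3 and with the replicate block, and that of NID1 without ESX1 replicate 2. HSPG2 was 120.4 normalized CPM in ESX1 replicate 1 against 46.2 and 57.6 in the other two. FN1, the gene of fibronectin, was called lower in NC against WT (-1.17, adjusted p = 0.0374), a call lost by DESeq2, by limma, with the replicate block, without WT replicate 1 and without any NC replicate. Of 5 tested ADAMTS-like genes, 0 were called in ESX1 against NC by edgeR (1 at an unadjusted p below 0.05, 0 called by DESeq2 or limma), beside 1.78% of all tested genes. THSD4, which binds fibrillin microfibrils, was called lower in ESX1 against WT (-1.40, edgeR's adjusted p = 0.000166), as were 4.77% of all tested genes. ADAMTSL5 was called higher in NC against WT (1.19, adjusted p = 0.0441), as were 3.12% of all tested genes. The ADAMTSL5 call was lost in 7 of 17 alternatives, among them without WT replicate 2, without WT replicate 3, without ESX1 replicate 3 and without any NC replicate.

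The genes whose levels followed TIMP3 most closely over the 9 samples were CTC-459F4.1 (Pearson r = 0.985 on log2 CPM), CLIC6 (0.984), SCPEP1 (0.983), SHROOM2 (0.982) and ZNF805 (0.982). CLIC6, a chloride channel family gene, had means of 9.74, 2.46 and 0.655 normalized CPM in ESX1, NC and WT. Those nearest to ADAMTS9 were EBF2 (0.995), HTR7 (0.994), ESRG, MYO5A and DHRS3 (each 0.990). EBF2, a transcription factor, had means of 50.7, 129 and 196 normalized CPM. Over 0.95 lay 63 genes for TIMP3 and 118 for ADAMTS9. The 9 points share their 3 group means and their libraries, so differences between the groups contribute to a high r, which is a description only.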

How the data were processed

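Total RNA of 9 TCam-2 samples was depleted of ribosomal RNA and sequenced as stranded read pairs. The authors used HISAT2 2.0.5 for alignment to GRCh38 and featureCounts for read counts per gene (1.5.2 in the file header, 1.6.5 in the submitters' processing notes, GENCODE 26 in the header) without the strand option. The deposited counts are raw. The authors also deposited log2 values normalized with DESeq2, whose transformation is not given in the sources used here. Both tables hold 63856 genes.

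The tests were made on these counts with edgeR 4.0.16 under R 4.3.3 (filterByExpr, TMM, glmQLFit over all 9 samples, glmQLFTest), with Benjamini-Hochberg adjustment over 18452 tested genes. A gene was called at an adjusted p below 0.05 and at least 2-fold. Standard errors were obtained from the log2 fold change and the F statistic of its test. Levels per kilobase are normalized CPM divided by the exon length of the count table. The alternatives were DESeq2 1.42.0, limma 3.58.1 on the deposited log2 values, RLE factors, other filters, a replicate block, only the 6 samples compared, mitochondrial genes left out, and each sample left out. The scripts were tested on simulated data. Correlation between replicates across genes was 0.967 to 0.98, and the common dispersion 0.0277.

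The genes named are the 10 genes, the other family genes called in any comparison, the 5 genes nearest to TIMP3 and to ADAMTS9 by Pearson correlation, and the called genes of each list with at most 4 others. ADAMTS9-AS1 was named in addition, and 1 result of the list of other inhibitors is not reported here. The members and lists were chosen with earlier results of these data known. The samples are biological replicates per the study's methods, but separate cultures are not described further, so p-values measure the spread between these samples.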

Additional observations from a re-analysis of the deposited data

How the results depend on the processing

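Of 500 values of the 10 genes under alternatives, 491 differed from the reported value by less than the replicate spread and 9 by more, and 0 reversed a call. The 491 include alternatives that can hardly move a value, such as leaving out a sample of the group not compared. TIMP3 in ESX1 against NC, for example, stayed at 2.44 without WT replicate 1, 2 or 3. The call changed in 2. With limma on the deposited log2 values (4.18 at 0 counts), TIMP3 was 1.83 (ESX1 against NC), 2.70 (ESX1 against WT) and 0.87 (NC against WT, under 2-fold), and ADAMTS16 was 1.59, 1.90 and 0.31. MMP15 in NC against WT was -0.91 without WT replicate 3. Uncalled values of TIMP1, TIMP4 and ADAMTS1 changed sign in some alternatives.

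Calls over all genes were 200 (at least 10 counts in every sample) and 158 (limma) against 328 for ESX1 against NC, 1192 and 935 against 2131 for ESX1 against WT, and 563 and 332 against 973 for NC against WT. The 10-count filter tests fewer genes, 13485 in place of 18452, and the cause of the limma difference was not tested. In ESX1 against NC, 199 rose and 129 fell, against 102 and 98 with the 10-count filter. Leaving out a sample gave 209 (without NC replicate 3) to 434 (without ESX1 replicate 2) calls for ESX1 against NC.

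Among the other MMP and ADAMTS genes, ESX1 against NC gave 3 calls, 1 with limma, and 3 to 6 with a sample left out, the 6 without ESX1 replicate 2 adding ADAMTS2, ADAMTS5 and ADAMTS6. ESX1 against WT gave 6, and 5 to 8 over the alternatives. NC against WT gave 0, 1 with a minimum of 1 count (MMP25), and 0 to 1 with a sample left out (MMP25 without WT replicate 1, ADAMTS3 without WT replicate 2, ADAMTS10 without WT replicate 3). 

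By the sample titles, replicate numbers are shared between groups. The deviations of same-numbered samples correlated between -0.03 and 0.193 across genes, highest for replicate 1 of ESX1 and NC. Whether same-numbered samples were handled together is not stated, and these correlations cannot exclude it. Some ESX1 samples carry other numbers in their descriptions than in their titles. With the replicate block, 358, 2109 and 1003 genes were called in the 3 comparisons, and among the list genes the block ended the calls of VCAN (ESX1 against WT), FN1 (NC against WT) and HSPG2 (ESX1 against NC). No call of the 10 genes changed. TIMP4, with 1 to 15 counts in a sample, is limited by depth.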
